A study of Mus musculus with 24 samples.

Results

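The genes described here are the nuclear genes of oxidative phosphorylation, chosen by name alone. Every row of the deposited count table whose symbol belongs to the series Ndufa, Ndufb, Ndufc, Ndufs and Ndufv with a number, Cox4 to Cox8 with a letter, Uqcr, Atp5 or Sdha to Sdhd, or is Cycs, was taken, which gave 81 of 17811 genes. Of these, 34 belong to complex I, 4 to complex II, 8 to complex III, 13 to complex IV and 15 to complex V. Cycs encodes cytochrome c, and the other 6 carry an Atp5 name only: 4 are pseudogenes, and Atp5s and Atp5sl encode no subunit of the enzyme. Ndufa4 was counted with complex IV, where its protein sits, although its name places it in complex I.

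The samples are bulk RNA from the epithelium of the jejunum, the middle stretch of the small intestine, in 4 male C57BL/6 mice aged 10 weeks that ate regular chow. Staining of 2 proteins of the cell surface, CD73 and CD26, placed the cells of each mouse in 6 zones of the villus by FACS: V1 (lowest), V2 (bottom), V3 (bottom to middle), V4 (middle), V5 (middle to tip) and V6 (tip). The labels give no genotype or treatment that differs between groups, which are set apart by position alone, with 4 libraries a zone, 1 from each mouse, and 24 in all. Molecules were counted at their 3′ ends with unique molecular identifiers (UMIs), so 1 molecule gives 1 count whatever the length of the transcript, and levels of different genes are compared without dividing by length.

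Oxidative phosphorylation makes most of the ATP of an absorptive cell. Complex I takes electrons from NADH and complex II from succinate, ubiquinone carries them to complex III, cytochrome c carries them on to complex IV, which reduces oxygen, and complex V uses the resulting proton gradient to make ATP. The mitochondrial genome encodes some core subunits of complexes I, III, IV and V, and nuclear genes encode the rest, including all of complex II. A few subunits of complexes IV and V have isoforms encoded by separate genes that are used in different tissues.

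Libraries held 806541 to 2266261 UMIs, and levels are CPM, the count scaled to a common library size by TMM. Errors of levels are the SD over 4 mice. Summed markers of absorptive cells were lowest in V1 (8561 to 22994 CPM) and highest in V4 (57271 to 88362 CPM), and 9 of 10 of them rose toward the tip. Summed goblet cell markers went the other way, from 48614 to 96394 CPM in V1 to 5552 to 16712 CPM in V3 and 9596 to 15877 CPM in V6, and 9 of 9 fell. The 6 Paneth cell markers summed to 5200 to 17359 CPM in V1, with up to 39230 CPM in V5 and no call in either direction. Stromal markers stayed at or under 11.6 CPM in every library, and summed leukocyte markers were 4.00 to 27.2 CPM in V1 and 113 to 161 CPM in V6. In bulk samples fewer cells of a type and less RNA per cell cannot be told apart. TMM scaling put the median gene at a log2 difference of -0.000715 between V6 and V1, whereas scaling by total UMIs put it at -0.339, and every direction below is relative to the TMM scale.

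As a group the members were high and nearly level along the villus. Together they gave 37962 ± 5431 CPM in V1, 40807 ± 3394 CPM in V3 and 37808 ± 2150 CPM in V6 (SD, n = 4), and the difference between V6 and V1 was smaller than the spread between mice (log2 0.0043 ± 0.18, SD of 4 mice). As a share of all UMIs, without TMM scaling, they were 4.31 ± 0.55% in V1 and 3.41 ± 0.24% in V6. Within mice 1 to 4 this share went from 4.44 to 3.16%, from 3.53 to 3.36%, from 4.49 to 3.39% and from 4.79 to 3.74%. It was lower at the tip in all 4 mice, although the ranges of the groups overlapped.

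For each gene the slope, the log2 change per zone toward the tip, was tested with edgeR's quasi-likelihood test and Benjamini-Hochberg adjustment over the 9328 genes that passed a filter on low counts. Of the 81 members 78 passed this filter, and Cox6a2, Atp5k-ps2 and Atp5l-ps1 did not. Toward the tip 4 of the 78 members rose (5.13%, against 22.1% of all genes tested) and 13 fell (16.7%, against 22.8%), while 61 passed in neither direction. With mouse as a block, 4 rose and 23 fell, against 27.6% and 27.8% of all genes. The share that rose lay below that of all genes in both tests, and the share that fell lay near it. Their slopes were also closer together than those of all genes, with an SD of 0.081 against 0.184 and a median size of 0.030 against 0.104.

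The 95% intervals of 49 of the 61 members with no call lay within 0.1 log2 per zone of 0. The widest belonged to low-count rows and to members that differed between mice, from -0.215 for Atp5l-ps2 to 0.14 for Atp5d. The test was tried on simulated counts of 9099 genes, where true slopes of 0.2 were called in 50.5% of 97 genes and true slopes of 0.4 in 95% of 100. The changed genes were drawn at random from all genes tested, so these shares do not measure the power for the members. The median SE of the members' slopes was 0.024 per zone, beside a median slope size of 0.030, so a slope of that size can be missed.

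**Figure D1:**
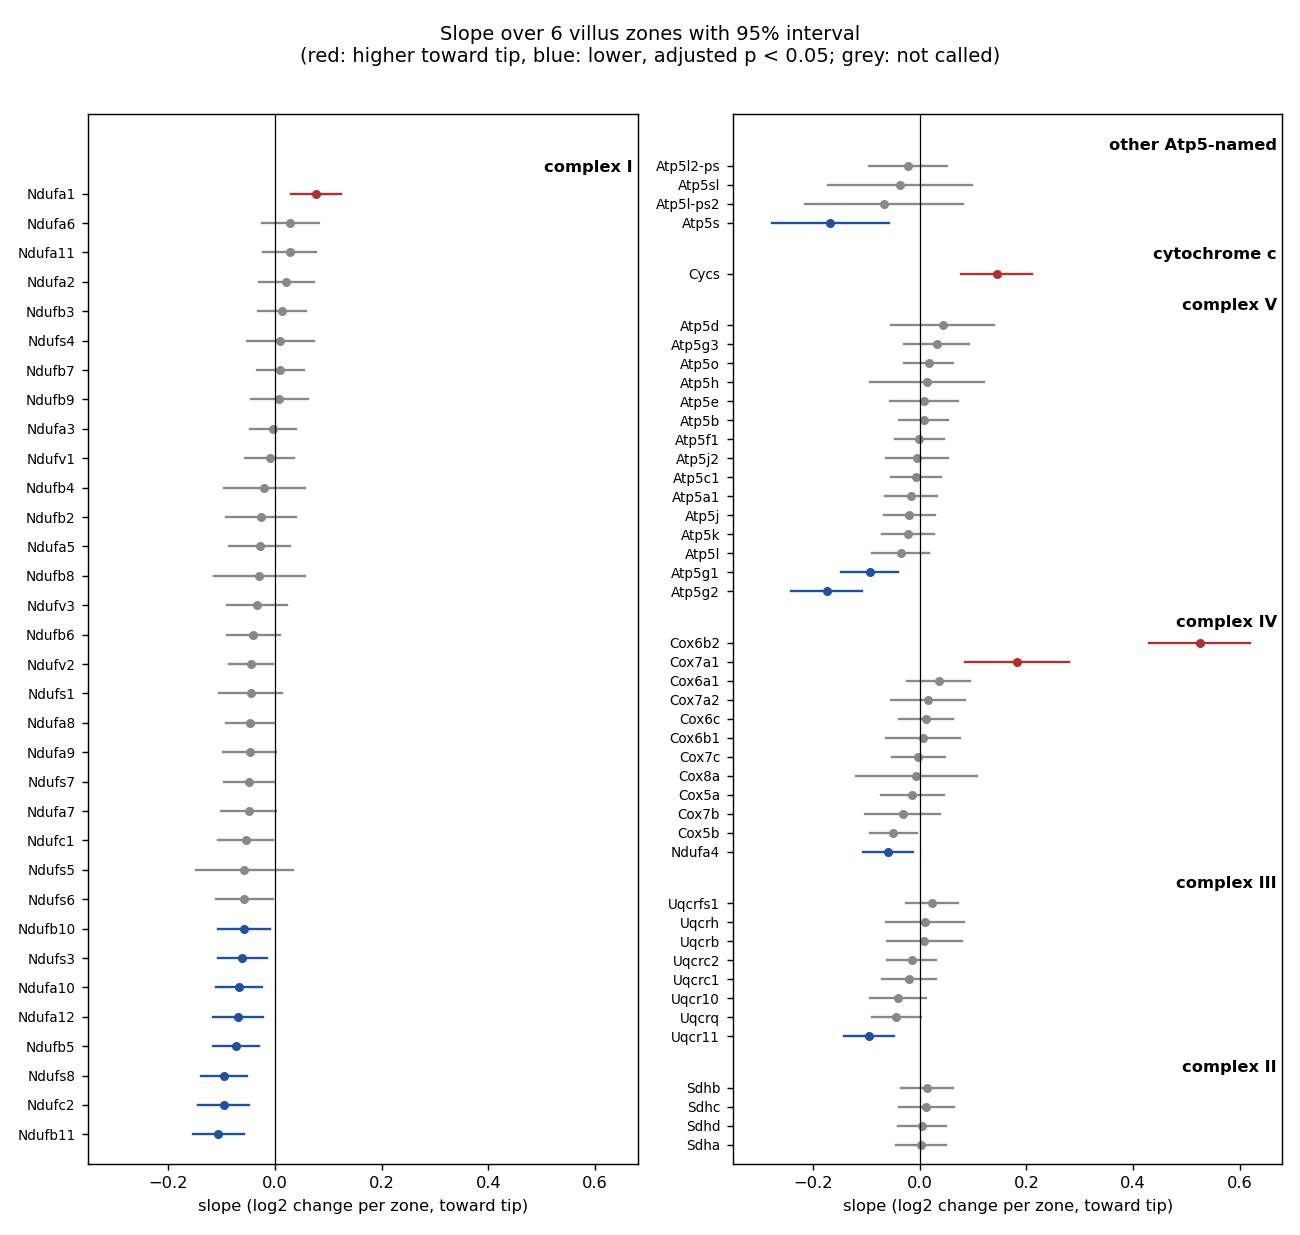
Slope over the 6 zones (log2 change per zone, horizontal axis) with its 95% interval for 77 of the 78 members tested, grouped by complex. Red marks the 4 members that rose and blue the 13 that fell at an adjusted p under 0.05, and Cox6b2 at 0.525 lies apart from all others, most of which sit close to 0.

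The complexes differed in their level and, by description, in their median slope. The median level of a member was 265 CPM in complex I, 398 in complex II, 511 in complex III, 724 in complex IV and 877 in complex V, and Cycs had 259 CPM. Median slopes were -0.045 for complex I, 0.0087 for complex II, -0.017 for complex III, 0.0020 for complex IV and -0.0048 for complex V, beside -0.0047 for all genes tested. These medians also varied by mouse, from -0.083 to 0.017 in complex I and from -0.039 to 0.063 in complex IV. The ranges overlapped, but the same mice gave both, so overlap does not tell whether the complexes differed within a mouse. That difference was not tested.

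Most of the members that fell belong to complex I, the NADH dehydrogenase. Of its 34 members 8 fell (23.5%, close to the 22.8% of all genes) and 1 rose, and with mouse as a block 17 fell (50%, against 27.8%). The catalytic core, the 7 nuclear subunits that carry the flavin and the iron-sulfur clusters, had negative slopes in 7 of 7, of which 2 were called and 6 with the block. Their summed level was 2013 ± 94 CPM in V1 and 1691 ± 112 CPM in V6, a log2 difference of -0.25 ± 0.13 (SD of 4 mice). Of the 9 accessory subunits of the matrix arm 1 fell, and of the 18 of the membrane arm 5 fell and 1 rose. With the block 4 of the matrix arm fell (44.4%), and 7 of the membrane arm fell (38.9%) and 1 rose, while 27.8% of all genes fell.

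Ndufs8, an iron-sulfur subunit on the path of electrons to ubiquinone, had 345, 321, 340 and 369 CPM in V1 of mice 1 to 4, and 271, 240, 224 and 280 CPM in V6. All 4 mice were lower at the tip and the groups did not overlap. Its slope was -0.095 ± 0.021 (SE, adjusted p = 7.1e-04 in edgeR's test). Ndufs3, a core subunit of the same module, fell by 0.061 ± 0.021 per zone (adjusted p = 0.0241), but with V6 below V1 in 3 of 4 mice, overlapping groups, and no call without mouse 1, 3 or 4 or without V5. Ndufv1, which binds NADH, had 259 CPM at the bottom and 250 CPM at the tip with a slope of -0.010 (adjusted p = 0.729). The core members Ndufv2, Ndufs1 and Ndufs7 had slopes from -0.049 to -0.044, which passed with the block (adjusted p of 0.029, 0.0448 and 0.0194) and not without it. DESeq2 called Ndufv2 and Ndufs7 as well (adjusted p of 0.0183 and 0.0404), and Ndufs7 was also lower in V6 than in V1 (adjusted p = 0.0468 in edgeR's test).

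Ndufb11, an accessory subunit of the membrane arm encoded on the X chromosome, had the steepest fall of the complex. It was counted at 269, 228, 290 and 255 CPM in V1 of mice 1 to 4 and at 174, 191, 167 and 201 CPM in V6, with no overlap, and its slope was -0.106 ± 0.023 (adjusted p = 7.0e-04). Ndufc2, another membrane-arm subunit, went from 211 ± 41 CPM in V1 to 154 ± 14 CPM in V6 (slope -0.096 ± 0.023, adjusted p = 0.00163). Ndufb5 went from 294 ± 20 to 236 ± 26 CPM (slope -0.073 ± 0.021, adjusted p = 0.0065). In both the V1 and V6 ranges overlapped, although V6 was the lower in all 4 mice. Ndufa10, Ndufa12 and Ndufb10, named here after their values were seen, completed the 8, with slopes of -0.068, -0.069 and -0.058. The calls of Ndufa12, Ndufa10 and Ndufb10 were each lost when 1 mouse was left out: Ndufa10 without mouse 1 or 3, Ndufa12 without mouse 3 or 4, and Ndufb10 without mouse 1, 3 or 4. Ndufb5 was not called without mouse 3.

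Ndufa1 was the one member of complex I that rose. It encodes a small membrane-arm subunit needed to assemble the complex, and it also lies on the X chromosome. Its level was 317, 245, 323 and 310 CPM in V1 of mice 1 to 4 and 433, 457, 383 and 382 CPM in V6, so that all V6 libraries lay above all V1 libraries. The slope was 0.077 ± 0.022 (adjusted p = 0.00736). The mean was already 406 ± 46 CPM in V3, and from V3 to V6 the slope was -0.0093. Without mouse 2, whose V1 library was the lowest of all, and under total UMI scaling Ndufa1 was not called. Ndufb9, the most abundant member of the complex at 652 CPM, had a slope of 0.0083 (adjusted p = 0.819).

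Complex II, the succinate dehydrogenase that also serves the citric acid cycle, had no member called on the TMM scale. EdgeR's test gave 0 of 4 also at an unadjusted p under 0.05. The test with mouse as a block, DESeq2 and limma-voom called 0 as well (DESeq2 and limma-voom called 45.1% and 45.3% of all genes). Under total UMI scaling Sdha and Sdhd were called lower, where 39.9% of all genes fell. Sdha, the flavoprotein, had 330 ± 18 CPM in V1, 412 ± 32 CPM in V3 and 350 ± 30 CPM in V6. Sdhb, the iron-sulfur subunit, had 578 ± 59, 704 ± 108 and 629 ± 86 CPM in the same zones. Sdhc and Sdhd, the membrane anchors, had slopes of 0.013 and 0.0045, and the 95% intervals of all 4 members lay between -0.045 and 0.064 per zone. The test for a middle zone above or below the ends called none of them (unadjusted p of 0.0553 at the lowest, for Sdhb).

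In complex III, which passes electrons from ubiquinol to cytochrome c, 1 of 8 members fell (12.5%, against 22.8% of all genes) and none rose. Uqcr11, a small subunit of the complex, had 639, 479, 494 and 530 CPM in V1 of mice 1 to 4 and 366, 410, 339 and 420 CPM in V6. Every V6 library was below every V1 library, and the slope was -0.096 ± 0.022 (adjusted p = 0.00134). The Rieske protein gene Uqcrfs1 had a slope of 0.023 (adjusted p = 0.429), and the core protein genes Uqcrc1 and Uqcrc2 had -0.020 and -0.015 (adjusted p of 0.524 and 0.61). Uqcrc1 was the most abundant of the complex at 1005 CPM. Together the complex gave 4480 ± 516 CPM in V1 and 4212 ± 232 CPM in V6.

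**Figure D2:**
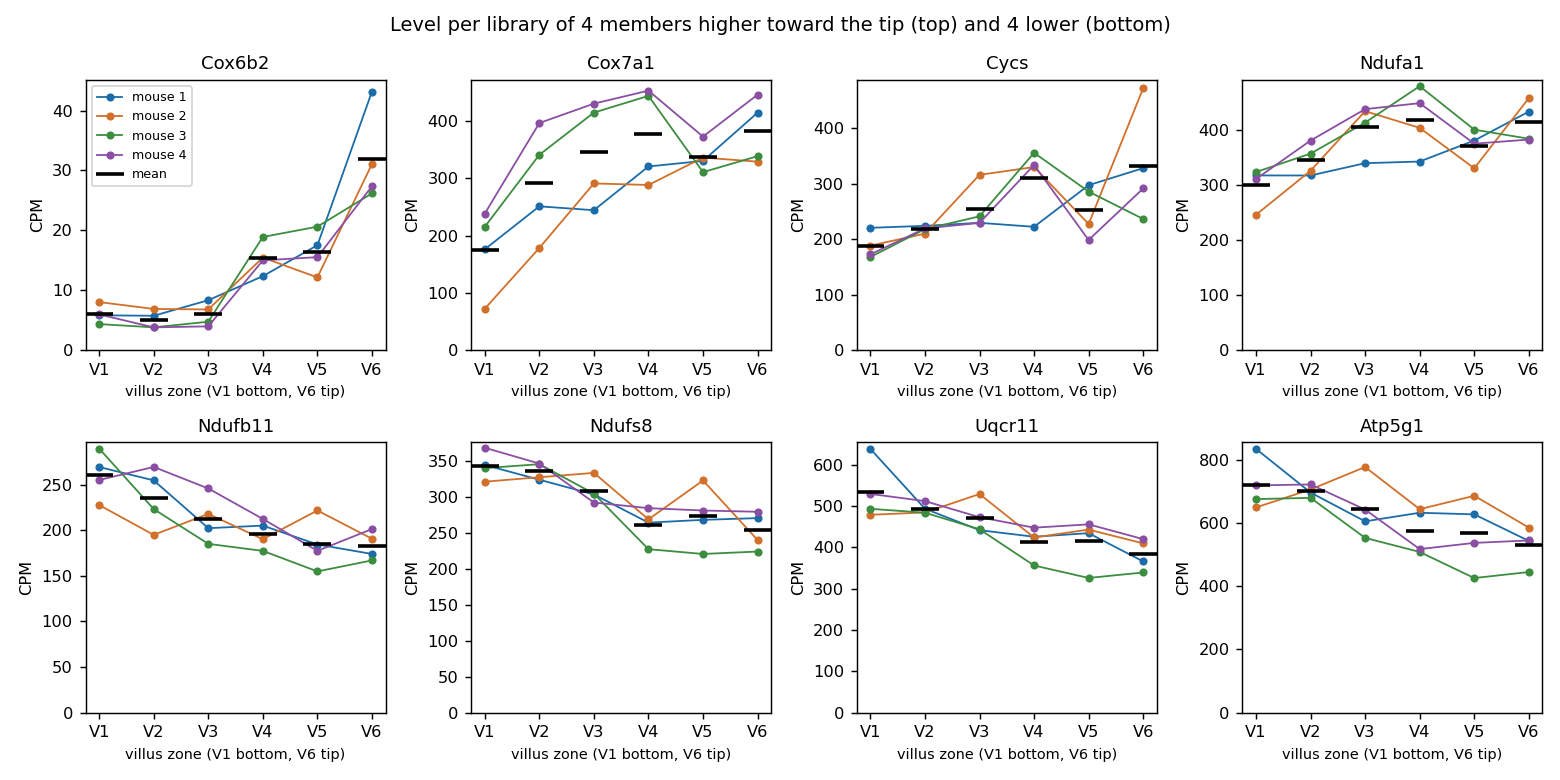
CPM (vertical axis, from 0) in each zone from V1 (bottom) to V6 (tip) for the 4 members that rose and 4 of the members that fell. Coloured points and lines are the 4 mice and black bars their means: Cox6b2 stays under 10 CPM to V3 and reaches 26.2 to 43.2 CPM in V6, while the 3 other risers are already higher by V3 or V4.

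Complex IV, cytochrome c oxidase, held the 2 largest rises, and both were tissue isoforms. Cox6b2 encodes the form of subunit VIb best known from testis, and Cox6b1 the form found in most tissues. The count of Cox6b2 was 5 to 71 UMIs a library. Its level in V1 was 5.80, 8.01, 4.33 and 5.95 CPM in mice 1 to 4, and in V6 it was 43.2, 31.1, 26.2 and 27.4 CPM. The groups lay far apart, with 5.31 times the level at the tip, and the slope was 0.525 ± 0.045 (adjusted p = 4.0e-09). Its mean was 5.03 CPM in V2 and 5.94 in V3, then 15.4 in V4 and 16.4 in V5, so the rise began after V3. Cox6b1 had 1429 ± 363 CPM at the bottom and 1463 ± 236 CPM at the tip (slope 0.0062, adjusted p = 0.896), and even at the tip Cox6b2 made up only 2.18 ± 0.60% of the molecules of the pair, against 0.463 ± 0.24% in V1.

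Cox7a1 encodes the heart and muscle form of subunit VIIa and Cox7a2 the form of liver and most other tissues. Cox7a1 had 176, 72.1, 215 and 238 CPM in V1 of mice 1 to 4 and 415, 329, 339 and 446 CPM in V6, with no overlap. Its slope was 0.182 ± 0.047 (adjusted p = 0.0031). The means were 292 CPM in V2, 345 in V3 and 377 in V4, so most of the difference lay between V1 and V3. Cox7a2 stood at 611 ± 169 CPM in V1 and 654 ± 85 CPM in V6 (slope 0.016, adjusted p = 0.73). Cox7a1 made up 21.5 ± 4.5% of the molecules of this pair in V1 and 36.9 ± 2.2% in V6.

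Of the other members of complex IV only Ndufa4 passed, and it fell. It had 883, 689, 886 and 809 CPM in V1 of mice 1 to 4 and 597, 727, 598 and 769 CPM in V6, where mouse 2 was higher than in V1 and the groups overlapped. The slope was -0.059 ± 0.022 (adjusted p = 0.0349), and the call was lost without mouse 1, 3 or 4. Cox5b, named after its values were seen, had a slope of -0.049 that did not pass in edgeR's test without the block (adjusted p = 0.0576). With the block it passed (slope -0.048, adjusted p = 0.0228), and DESeq2 called it as well. Cox6a1, the most abundant of all members, had 1553 CPM at the bottom and 1810 CPM at the tip (adjusted p = 0.313), while its muscle isoform Cox6a2 had 0.919 CPM on average. Cox4i1, Cox4i2 and Cox8b were not analysed here.

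The start regions of the genes of both pairs are shown because in each pair an isoform rose while its partner was not called. They are the 250 bases before the RefSeq start on build GRCm38.p6, written along the gene's strand, with each CG dinucleotide in capitals, for Cox6b2 (chr7:4753095-4753344, minus strand), Cox6b1 (chr7:30626115-30626364, minus), Cox7a1 (chr7:30183921-30184170, plus) and Cox7a2 (chr9:79759854-79760103, minus).
Cox6b2: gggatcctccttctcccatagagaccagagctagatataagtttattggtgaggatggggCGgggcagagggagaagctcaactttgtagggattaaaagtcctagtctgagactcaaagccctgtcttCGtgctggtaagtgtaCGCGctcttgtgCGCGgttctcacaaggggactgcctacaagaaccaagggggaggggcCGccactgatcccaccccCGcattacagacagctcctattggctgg
Cox6b1: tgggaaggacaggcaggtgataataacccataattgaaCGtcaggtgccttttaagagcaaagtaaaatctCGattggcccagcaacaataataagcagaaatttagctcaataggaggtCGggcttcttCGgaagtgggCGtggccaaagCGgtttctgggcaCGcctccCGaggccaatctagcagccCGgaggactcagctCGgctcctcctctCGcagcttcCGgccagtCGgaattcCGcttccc
Cox7a1: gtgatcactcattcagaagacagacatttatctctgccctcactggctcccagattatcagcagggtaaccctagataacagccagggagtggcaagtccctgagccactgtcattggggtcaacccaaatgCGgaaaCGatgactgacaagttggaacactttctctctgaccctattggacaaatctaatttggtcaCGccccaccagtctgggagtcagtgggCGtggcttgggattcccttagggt
Cox7a2: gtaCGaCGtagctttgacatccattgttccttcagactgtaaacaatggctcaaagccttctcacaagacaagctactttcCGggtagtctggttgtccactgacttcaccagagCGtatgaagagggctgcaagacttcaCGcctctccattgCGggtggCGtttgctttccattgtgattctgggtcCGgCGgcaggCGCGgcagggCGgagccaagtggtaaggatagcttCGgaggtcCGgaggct
The windows of the isoforms that rose, Cox6b2 and Cox7a1, held 8 and 4 CG dinucleotides, and those of their partners 14 each. Among 32851 windows of the same length before RefSeq starts the median was 6, and among the 68 windows of members it was 14. At most 8 were found in 59.7% of all windows and in 14.7% of the members' windows. Those 10 windows also included the fallers Ndufb10 and Ndufc2 and members with no call, such as Uqcrc1. The window of Cycs, which rose too, held 23. A relation of CG content to the slope was not tested. The 4 starts lie 1 to 36 bases from those of GENCODE M21.

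For motifs, the same 250 bases were searched on both strands in the 63 members and 27025 genes that have a RefSeq window. The motif of NRF1, an activator of respiratory genes, was GCGCA and GCGC with any 1 base between, and was found in 13 members (20.6%), against 4.23% of all genes. The letters CCGGAAG of the ETS family, which includes the respiratory factor GABP, were in 12 members (19%), against 7.83%. Cox6b1 held the ETS letters, and the other 3 of the pairs held neither. The YY1 letters AAGATGGCG were in 1 member (1.59%, against 0.71%), and the E-box CACGTG was in 5 (7.94%, against 6.86%). Each of these motifs contains a CG, and the members' windows held a median of 14 CG dinucleotides, against 6 in all windows. The shares were not matched for CG content. Such matches describe letters in a window and not binding.

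In complex V, the ATP synthase, the calls on the slope were in the ring of c subunits in the membrane. The 3 genes Atp5g1, Atp5g2 and Atp5g3 encode the same mature c protein with different import sequences. Of the 15 members of complex V 2 fell (13.3%, against 22.8% of all genes), both c-ring genes, and none rose. Atp5g1 had 834, 649, 676 and 719 CPM in V1 of mice 1 to 4 and 543, 585, 445 and 545 CPM in V6 (slope -0.094 ± 0.025, adjusted p = 0.00451). Atp5g2 had 66.9, 50.3, 59.4 and 81.5 CPM in V1 and 30.4, 38.6, 41.7 and 34.5 CPM in V6 (slope -0.174 ± 0.032, adjusted p = 1.2e-04). In both genes all V6 libraries lay below all V1 libraries. Atp5g3 had 1102 ± 272 CPM at the bottom and 1267 ± 130 CPM at the tip (slope 0.032, adjusted p = 0.379). The share of Atp5g3 among c-ring molecules was 57.9 ± 6.4% in V1, 66.6 ± 5.3% in V3 and 69.0 ± 4.1% in V6, while that of Atp5g1 was 38.7 ± 6.4% in V1 and 29.0 ± 4.1% in V6.

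None of the 5 members of the catalytic head passed on the slope, with or without the block. Atp5b, the catalytic beta subunit, went from 1122 to 1225 CPM between V1 and V6 (slope 0.0076, adjusted p = 0.805). Atp5a1 and Atp5c1, the alpha and gamma subunits, had slopes of -0.016 and -0.0068, and neither passed. Atp5d, the delta subunit and the most abundant member of the complex at 1409 CPM, had means of 1166 CPM in V1, 1582 CPM in V4 and 1346 CPM in V6 (slope 0.043, adjusted p = 0.458). With the block it was higher in V4 than in V1 by a log2 of 0.47 ± 0.15 (adjusted p = 0.0102), against 0.44 ± 0.27 without it (adjusted p = 0.209). Slopes of the 4 members of the peripheral stalk ran from -0.019 to 0.017, and those of the 3 small membrane subunits from -0.035 to -0.0048. Atp5k and Atp5l have pseudogene copies in the table, so reads may be shared between them. Atp5s, named after its values were seen, fell from 12.7 to 7.25 CPM (slope -0.167, adjusted p = 0.0117) but was counted at 5 to 26 UMIs, and the call was lost without mouse 3 or 4.

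Cycs, the soluble carrier between complexes III and IV, which also triggers apoptosis when it leaves the mitochondrion, rose. It had 220, 188, 168 and 172 CPM in V1 of mice 1 to 4 and 328, 472, 236 and 291 CPM in V6. The groups did not overlap, but mice 3 and 4 peaked in V4, at 356 and 334 CPM, and mouse 2 had the highest tip value. The slope was 0.144 ± 0.032 (adjusted p = 7.7e-04).

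Pairs of isoforms were compared within each library, where scaling cancels except through the 1 CPM added to each level. That addition weighs most on low genes such as Cox6b2. The slope of the log2 ratio of (CPM + 1) was averaged over mice and tested by a two-sided permutation test of zones within mice with 100000 resamples, adjusted over the 5 pairs. The ratio of Cox6b2 to Cox6b1 had a slope of 0.476 ± 0.13 (SD of 4 mice, adjusted permutation p = 2.5e-05), and that of Cox7a1 to Cox7a2 0.181 ± 0.071 (adjusted permutation p = 3.3e-05), both positive in 4 of 4 mice. Atp5g1 over Atp5g3 had -0.132 ± 0.038 (adjusted permutation p = 2.5e-05) and Atp5g2 over Atp5g3 -0.206 ± 0.090 (adjusted permutation p = 3.7e-05), both negative in 4 of 4. Atp5g1 over Atp5g2 had 0.073 ± 0.092 and was positive in 3 of 4 mice (permutation p = 0.0302), and without mouse 1, 2 or 4 it did not pass. The raw p of the Cox6b2 pair and of Atp5g1 over Atp5g3 (1.0e-05) is the smallest that the resamples can give. From V3 to V6 only the Cox6b2 pair still passed. These pairs were known to differ from earlier results of these data.

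**Figure D3:**
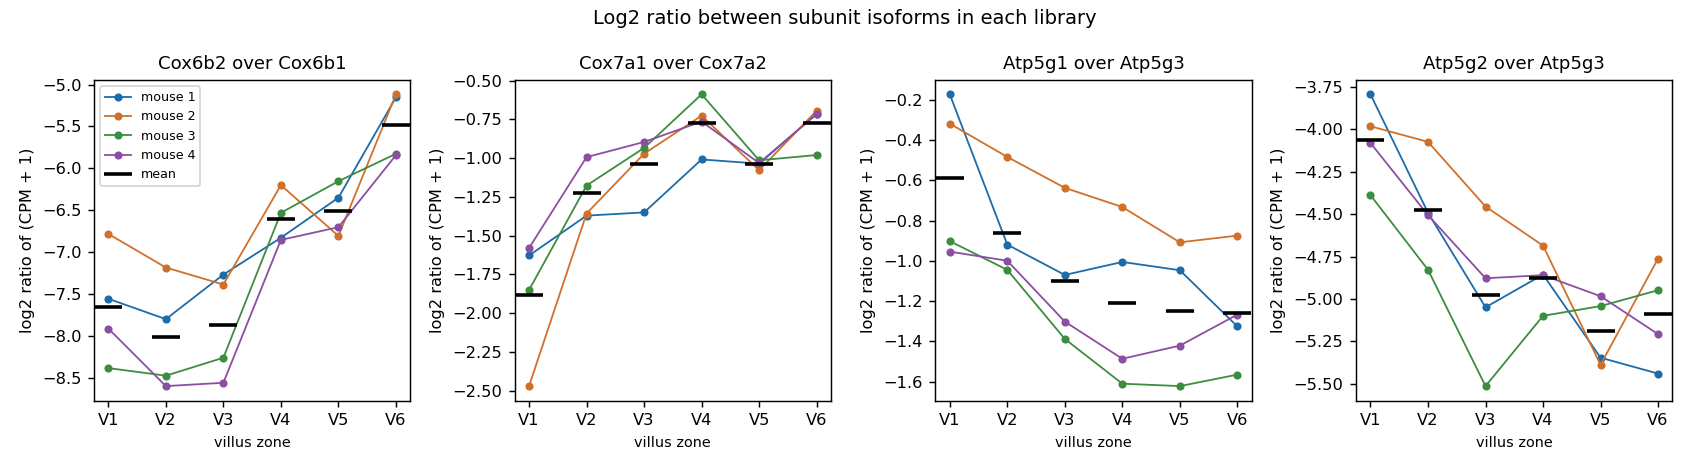
Log2 ratio of (CPM + 1) between subunit isoforms (vertical axis) in each zone, with a colour for each mouse and black bars for the mean. The Cox6b2 ratio climbs after V3 in all 4 mice, the Cox7a1 ratio and the Atp5g3 ratios move mostly between V1 and V4, from a mean of -1.88 to -0.772 for Cox7a1 over Cox7a2.

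The ends of the axis and its parts were also compared. From V1 to V6 4 members rose and 9 fell (20.2% and 18.6% of all genes), and 16 fell with the block (24.7% of all genes). From V1 to V4 4 rose and 5 fell (19% and 17.5% of all genes), and with the block 7 rose and 13 fell (25.6% and 24.8% of all genes). The same 4 members rose in both, and both comparisons use the V1 libraries. From V4 to V6 edgeR's test called 0 members in each direction (0.45% of all genes rose and 0 fell), and 1 member, Cox6b2, had an unadjusted p under 0.05. With mouse as a block, with DESeq2 and with limma-voom Cox6b2 was called, at an adjusted p of 0.00547, 0.0292 and 0.0252, among 1.35%, 0.697% and 0.461% of all genes. For curvature, which is positive where the middle zones are lowest, edgeR called 0 members (2.86% of all genes positive and 4.57% negative) and 5 had an unadjusted p under 0.05. With the block Cox6b2 was called as positive (9.55% of all genes), and Cox7a1, Cox6a1, Atp5d and Atp5sl as negative (12.3% of all genes), while DESeq2 and limma-voom called 0.

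Goblet cell markers fell together with the members that fell, over the same low zones. Summed markers of dividing cells went from 216 to 328 CPM in V1 to 102 to 139 CPM in V6 (5 of 8 fell), and those of stem cells from 52.6 to 116 CPM to 22.7 to 45.3 CPM (2 of 5 fell). Their part in the result was not tested. With V1 left out 1 member rose and 5 fell, while 12.5% of all genes were called. From V3 to V6, where the summed goblet markers were level at 11863 ± 5064 CPM in V3 and 11594 ± 2956 CPM in V6, only Cox6b2 was called, and 2.59% of all genes. With a goblet score and mouse as covariates 0 members were called, 5 had an unadjusted p under 0.05 (0.0174 for Cox6b2), and 4.02% of all genes were called. Over the same zones summed enteroendocrine markers went from 385 to 1799 CPM in V3 to 3426 to 6114 CPM in V6 (5 of 8 tested rose over the whole axis and 1 fell), and leukocyte markers from 15.4 to 127 CPM to 113 to 161 CPM (3 of 3 tested rose). The part of these cells in the Cox6b2 rise was not tested. For the other members the part of the goblet cells in the result cannot be told apart from that of the zone.

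The members' levels differed between mice as well as between zones. Mouse took 54% of the variance of the members' summed level and zone 9.9%. For 48 of the 78 members (61.5%) mouse took more of the variance than zone, against 37.6% of all genes. Among the complexes mouse took the largest share in complex IV, 73.9%. Its summed level was on average 8915 CPM in mouse 2, 10198 in mouse 1, 11429 in mouse 3 and 12413 in mouse 4. Cox8a alone had 1028 CPM on average in mouse 2 and 2141 CPM in mouse 4, and mouse took 84.1% of its variance. In complex I zone took 24.3% and mouse 21.3%, and in complex II zone took 39.2% and mouse 16.9%. These shares were not adjusted for the number of groups, and 6 zones take more by noise alone than 4 mice. The i7 indexes put the libraries into 4 sets of 5 to 7 that follow the mice almost entirely, so a difference between animals and one between library sets cannot be told apart. In Cox6b2, by contrast, zone took 90.4% of the variance and mouse 2.23%.

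**Figure D4:**
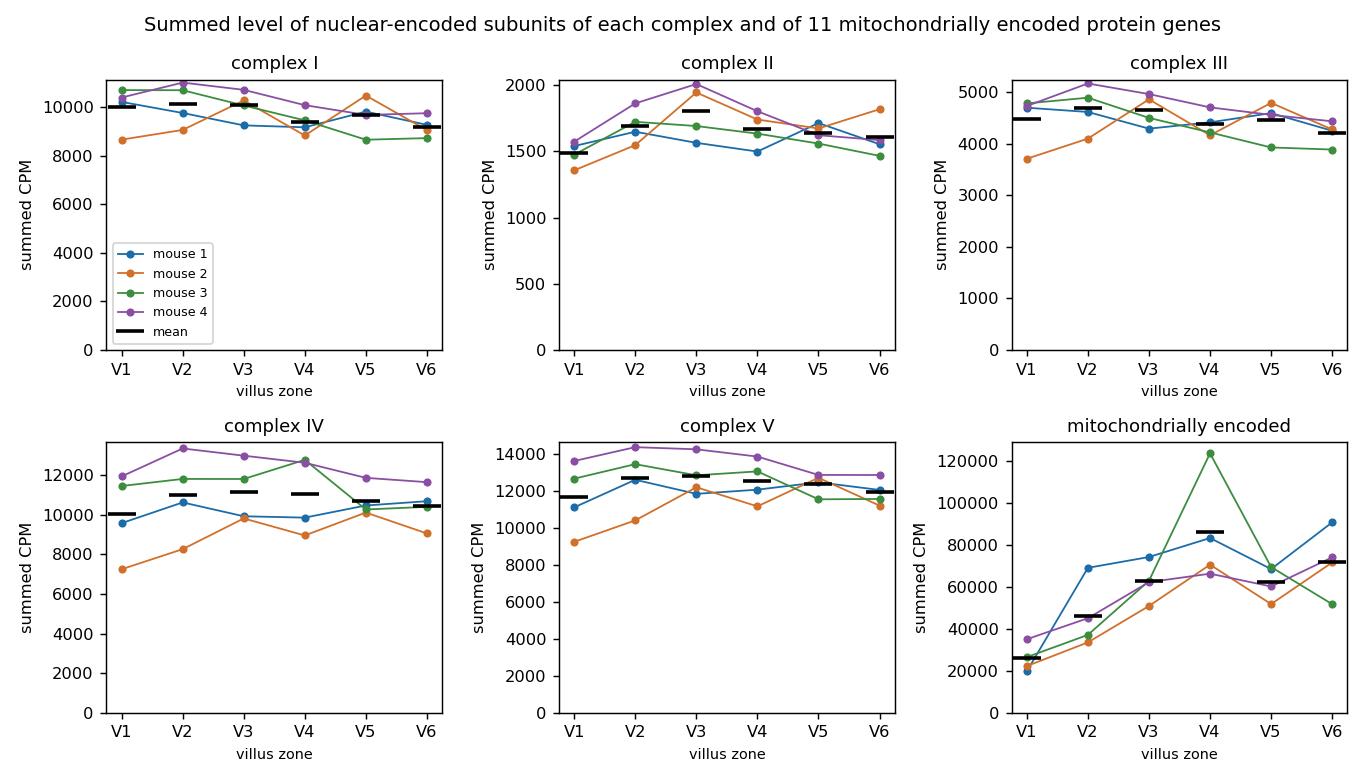
Summed CPM (vertical axes, from 0, with a scale for each panel) of the nuclear-encoded members of complexes I to V and of 11 mitochondrially encoded protein genes in each zone, with a colour for each mouse and black bars for the mean. The nuclear sums stay nearly level, with mouse 2 the lowest in complex IV in every zone, while the mitochondrially encoded sum is lowest in V1 in every mouse.

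The mitochondrially encoded partners did not stay level. The 11 protein genes of the mitochondrial genome that were analysed summed to 25907 ± 6724 CPM in V1, 46257 ± 16029 in V2, 62664 ± 9554 in V3, 86096 ± 26200 in V4, 62582 ± 8261 in V5 and 72173 ± 16010 in V6. The V1 range of 19750 to 35078 CPM lay below that of V6, 51831 to 90903 CPM. Of these genes 10 of 11 rose (90.9%, against 22.1% of all genes), and 11 of 11 with the block (against 27.6%). Examples are mt-Cytb, the complex III cytochrome b gene, from 14159 to 32374 CPM between V1 and V6 (slope 0.211, adjusted p = 1.7e-04), and mt-Co1, the catalytic subunit gene of complex IV, from 527 to 2389 CPM (slope 0.408, adjusted p = 1.4e-08). The log2 ratio of the mitochondrially encoded to the nuclear-encoded sum was -0.57 ± 0.28 in V1, 1.09 ± 0.40 in V4 and 0.91 ± 0.31 in V6. Its highest V1 value, -0.28, lay below its lowest V6 value, 0.51. Neighbouring genes of this genome are read from shared transcripts, so 3′ counts of single genes, such as mt-Nd4l at 34932 ± 24096 CPM in V4, are uncertain. The sum and the ratio rest largely on mt-Cytb, at 33868 CPM in V4, and on mt-Nd4l. The latter went from 4645 CPM in V1 to 21777 CPM in V6. The genes mt-Nd4 and mt-Co3 were not analysed here.

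Genes that build or regulate the complexes were counted from lists. Of 44 assembly factors tested 20 fell and 1 rose, while 22.8% of all genes fell and 22.1% rose. Their median slope was -0.095, and 47.7% were called in either direction, against 44.9% of all genes. The riser was Sco2, a copper chaperone of complex IV, from 44.6 ± 21 CPM in V1 to 145 ± 67 CPM in V4 and 110 ± 38 CPM in V6 (slope 0.257 ± 0.069, adjusted p = 0.00469). Surf1, which also helps to build complex IV, fell from 49.0 to 34.6 CPM (slope -0.105, adjusted p = 0.00348). Sco2 and Surf1 were named after their values were seen, as were the regulators below.

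Of 12 regulators of mitochondrial genes tested 2 rose and 3 fell (41.7% called, close to the 44.9% of all genes), and with the block Ppargc1a rose too (adjusted p = 0.0145, against 0.322 without it). Tfam, which packages and transcribes mitochondrial DNA, fell from 30.3 ± 6.4 CPM in V1 to 14.7 ± 4.2 CPM in V6 (slope -0.192, adjusted p = 0.00516), and Ssbp1, which binds single-stranded mitochondrial DNA, from 32.2 ± 8.3 to 15.7 ± 3.4 CPM (slope -0.201, adjusted p = 5.2e-04). Lrpprc, which stabilises mitochondrial messenger RNA, had the third fall (slope -0.211, adjusted p = 0.0237). The risers were the transcription factor genes Yy1 (slope 0.216, adjusted p = 0.0084) and Esrra (slope 0.065, adjusted p = 0.0454). The fall of these genes and the rise of the mitochondrially encoded ones stand side by side without a test of their relation. Of 6 subunits or partners whose names lie outside the pattern, such as Cyc1, 1 fell, Cox7a2l (slope -0.069, adjusted p = 0.0376), a factor that joins complexes III and IV.

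Genes of protein synthesis had lower median slopes than the members. Of 75 mitochondrial ribosomal protein genes 53 fell (70.7%, against 22.8% of all genes) and 0 rose, with a median slope of -0.098. Of 82 cytosolic ones 80 fell (97.6%) and 0 rose, with a median of -0.183. The median of the members was -0.019. Under total UMI scaling the members' median became -0.086, 51 of them fell and 3 rose (39.9% and 13% of all genes), while the distance of their median from that of all genes stayed at -0.015 under both scalings.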

How the data were processed

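Per the labels' protocols, sorted jejunal cells were sequenced by mcSCRB-seq, and the values in the deposited table are raw UMI counts for each gene and library. The submitters' processing notes name bcl2fastq 2.15.0.4 for demultiplexing and GRCm38 as build. The aligner, the annotation release and the use of strand were not given in the sources used here. Of the 17811 genes 131 had no count. Library totals of 806541 to 2266261 UMIs (median 1502948.5) limit the precision of low genes.

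The counts were fitted with edgeR 4.0.16 in R 4.3.3: filterByExpr by zone (minimum count 10, minimum total 15), TMM scaling, and a quasi-likelihood fit of zone means to the 24 libraries, leaving 18 residual degrees of freedom. Contrasts were the slope over zones 1 to 6, V6 minus V1, V4 minus V1, V6 minus V4 and the quadratic curvature. Calls used an adjusted p under 0.05 (Benjamini-Hochberg over all genes tested in a contrast). On simulated counts 9 of the calls were false (5.88%), and with no change simulated 0 were made. Alternatives were mouse as a block, DESeq2 1.42.0 and its size factors, limma-voom (limma 3.58.1), total UMI scaling, other filters, fewer zones, a goblet score and leaving out each mouse. Leaving out V5 or the shallowest library was added after seeing the data. Python 3.11.15, numpy 2.4.6, pandas 2.3.3 and matplotlib 3.10.9 were used for the rest.

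The members and lists were chosen with earlier results of these data known. Named members are those that rose, the up to 4 with the smallest adjusted p that fell in each complex, the most abundant in each complex, the isoform pairs, the catalytic members and up to 3 called for curvature in each direction. Others are named with a remark, and an item that the rule takes is not reported here. All 81 members matched GENCODE M21 by identifier, and promoter windows came from the RefSeq table on GRCm38.p6. Within 1000 bases of its 3′ end Ndufs1, Ndufa2, Ndufa3, Ndufa9, Ndufb2, Ndufb6, Uqcrc2, Uqcrh, Cox6a2, Cox6c, Atp5o or Atp5l-ps2 overlaps a gene on the other strand, and Ndufb8 and Atp5o one on the same strand, so their counts are uncertain.

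Each replicate is a mouse, and 1 mouse gave all 6 zones. Deviations from the zone means correlated at over 0.1 in 60 of 60 pairs of zones of the same mouse (lowest 0.182, mean 0.418), so mouse numbers pair the libraries. No 2 libraries were copies, since 36 pairs of the same zone had a chi-square of 3.35 to 27.5 for each degree of freedom, where sampling noise alone gives about 1.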

Additional observations from a re-analysis of the deposited data

Results flagged for a closer look

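In 10 of the 252 groups of 4 libraries examined (members named by rule and summed complexes, by zone) 1 library stood apart from the other 3 by a gap test, which flags about 1 in 20 groups by chance. Of the 10, 7 were libraries of mouse 2. In V6 of mouse 2 Atp5d had 721 CPM against 1479 to 1626 in the other mice, Cox6b1 had 1112 CPM against 1540 to 1626, and Sdhb had 757 CPM against 574 to 596. In V1 of mouse 2 Ndufa1 had 245 CPM against 310 to 323, Sdhb had 490 CPM against 596 to 618, and the summed complex III had 3708 CPM against 4698 to 4781. In V3 of mouse 2 Cycs had 316 CPM against 229 to 241. In mouse 4 Ndufc2 had 223 CPM in V3 against 186 to 192, and Atp5g3 had 1440 CPM in V5 against 1288 to 1313. In V5 of mouse 3 Uqcr11 had 326 CPM against 435 to 456.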

How the results depend on the processing

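With mouse as a replicate block the slope called 23 members as lower, V6 minus V1 16 as lower, V4 minus V1 7 as higher and 13 as lower, V6 minus V4 1 as higher, and curvature 1 as positive and 4 as negative; no call was lost in any contrast. Total UMI scaling called 51 members lower on the slope, 40 lower for V6 minus V1, 2 higher and 37 lower for V4 minus V1, and 1 positive for curvature. It put the median slopes at -0.111 (complex I), -0.058 (II), -0.083 (III), -0.064 (IV), -0.070 (V) and -0.086 (all members), and the log2 ratio of summed levels, V6 over V1, at -0.45, -0.23, -0.42, -0.26, -0.29 and -0.33 in the same order. With a mean of at least 50 CPM, 26, 23 and 23 members fell on the slope, V6 minus V1 and V4 minus V1. In that fit 62.6% of all genes were called on the slope in either direction. With no filter 5 and 1 fell in V6 minus V1 and V4 minus V1. DESeq2 called 20 lower on the slope, 9 lower for V4 minus V1 and 1 higher for V6 minus V4, where limma-voom also called 1.

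From V2 to V6 1 member rose and 5 fell, the median of complex II was -0.026, and Atp5g1 over Atp5g2 (0.050) no longer passed. From V3 to V6 1 rose and 0 fell, the median of complex II was -0.053, Ndufa1 reversed (-0.0093), and the ratios Cox7a1 over Cox7a2 (0.052), Atp5g1 over Atp5g2 (0.014), Atp5g1 over Atp5g3 (-0.052) and Atp5g2 over Atp5g3 (-0.066) no longer passed. With the goblet score and the replicate block 0 rose and 0 fell, medians were 0.016 (complex I), 0.039 (III) and 0.023 (all members), and Atp5g1 (0.0032), Ndufa4 (0.039) and Ndufb5 (0.0012) reversed. The causes were not tested.

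Leaving out each mouse in turn gave 6 to 23 members lower on the slope and 3 to 16 for V6 minus V1. For V4 minus V1 it gave 0 to 8. Those fits called 30.3 to 39.2% of all genes on the slope in either direction. The slope of Atp5g1 over Atp5g2 was 0.055 to 0.119. Of 576 values of named members under alternatives 509 kept their direction and side of the threshold. Over the alternatives the median slope of the mitochondrially encoded genes ran from 0.085 to 0.301 and that of the regulators from -0.119 to 0.044. It ran from -0.164 to -0.029 for assembly factors, from -0.165 to -0.045 for mitochondrial and from -0.248 to -0.057 for cytosolic ribosomal protein genes. Depth limits Cox6b2, Atp5g2 and the pseudogenes.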

Other observations

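The enzymes of the citric acid cycle, which feed electrons to the complexes, moved in both directions. Of 14 tested besides the Sdh genes 5 rose and 4 fell toward the tip (64.3%, against 44.9% of all genes). Cs, the citrate synthase that opens the cycle, went from 260 ± 55 CPM in V1 to 517 ± 41 CPM in V6 (SD, n = 4, slope 0.186 ± 0.028, adjusted p = 1.3e-05 in edgeR's test), and Ogdh, a subunit of the oxoglutarate dehydrogenase, from 249 ± 58 to 442 ± 101 CPM (slope 0.146, adjusted p = 0.00203). Dlst, Sucla2 and Mdh2 also rose. Idh2, the isocitrate dehydrogenase that makes NADPH, went from 58.7 ± 12 to 30.6 ± 4.7 CPM (slope -0.174, adjusted p = 0.00512), and Idh3b, Idh3g and Fh1 fell as well. All were named after their values were seen. Over the 14 the median slope was -0.034, and goblet markers fell over the same zones.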
